A study of Mus musculus with 6 samples.

Results

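The L1 family and the contactins are cell adhesion molecules of the immunoglobulin superfamily. They were chosen by gene symbol from the platform annotation as 10 of the 19938 genes measured, with 4 genes of the L1 family (L1cam, Chl1, Nrcam and Nfasc) and 6 contactin genes (Cntn1 to Cntn6). Each gene was represented by 1 probe set, no other probe set carried its symbol, and all 10 were measured on every array. The cells were derived from mouse embryonic stem cells of the 129SVEV background, in which an IRES-GFP cassette was inserted after the coding region of Bcl11b (the CTIP2 gene) and the Neo cassette was left in place. Floating aggregates were differentiated towards cortical neurons with the TGF-beta receptor inhibitor SB-431542 and the WNT inhibitor WNT-C59 in the first days, and cells were sorted by GFP on day 11, day 12 and day 13. For CTIP2:GFP+ cells (3 arrays) and for CTIP2:GFP- cells (3 arrays), RNA levels were measured on the GeneChip Mouse Gene 1.0 ST platform, once per fraction and day. All 6 arrays share the knock-in line, the inhibitors and the culture method, and whether the line is a single clone is not given in the sources used here.

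Members of the L1 family span the membrane and carry immunoglobulin domains and fibronectin type III repeats outside the cell. Their cytoplasmic tails bind ankyrins, which couple them to the spectrin and actin cytoskeleton of growing and mature axons. Contactins have a similar outer part but are held in the membrane by a GPI anchor, and they act together with partner proteins such as those of the Cntnap family and receptor tyrosine phosphatases. In the developing brain both groups take part in axon growth, bundling and guidance, and the study selected L1cam on these arrays as a surface marker of CTIP2:GFP+ cells.

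The arrays were not equally alike. The standard deviation over probe sets was 1.11 on the GFP- array of day 13, against 1.29 to 1.48 on the other 5 arrays, and its correlation with them across probe sets was 0.863 to 0.927. Differences below are log2 signals of GFP+ minus GFP- cells, averaged over the 3 days, and a gene was called when its Benjamini-Hochberg adjusted p from limma, with day as a factor, was under 0.05. The 3 arrays of a fraction come from 3 days and not from repeated cultures. The p-values therefore rest on how much a difference varied over the days, with each gene's spread drawn by limma towards that of all genes. They do not measure a gene's own spread over days alone. Without day 11, for example, the standard errors of the 10 genes ran only from 0.303 (L1cam) to 0.331 (Cntn4). RNA of a sorted fraction is a mean over its cells, and fewer cells of a type cannot be told apart from less RNA per cell.

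Of the 10 genes, L1cam was called higher in GFP+ cells, 0 were called lower and 9 stayed outside the threshold. Over all genes 0.797% (159) were called higher and 0.567% (113) lower, and without day 13 0 genes were called in either direction. The study chose L1cam partly on these arrays, so its call is not independent evidence of its direction. The mean difference was above 0 for all 10 genes, with a median of 0.51, and below 0 for 11763 of the 19938 genes, with a median of -0.05. L1cam was over 2-fold higher on average, and the other 9 genes were within 2-fold (1.97% of all genes over 2-fold higher, 1.02% over 2-fold lower). At an unadjusted p under 0.05 from limma, 3 of the 10 genes were higher, L1cam, Nrcam and Cntn1 (9.58% of all genes), and 0 were lower (5.96%).

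L1cam, the founding member of its family and a homophilic adhesion molecule of growing axons, had log2 signals of 8.73, 8.89 and 8.41 in GFP+ cells on day 11, day 12 and day 13, against 7.63, 7.17 and 6.60 in GFP- cells. The lowest GFP+ array lay above the highest GFP- array, so that the fractions did not overlap. GFP+ signals stayed within 0.49 of each other, while the GFP- signal was lower on each later day. The difference was 1.54 (2.91-fold, standard error 0.19, 95% interval 1.08 to 2.0, adjusted p = 0.032 from limma), and it ranked at 89 among the 19938 genes. This call was lost with no replicate block (adjusted p = 0.075), without day 13 (1.41, adjusted p = 0.071), after median centring (adjusted p = 0.119), after a further quantile normalization (1.31, adjusted p = 0.075) and by the methods' t-test, after the same adjustment (0.385). The call of L1cam was kept in 7 of 12 alternatives, among them the fit with no block and without the GFP- array of day 13 (1.28, adjusted p = 0.049). Also among the 7 were the mean over a gene's probe sets and the filters on dim probe sets. L1cam had 1 probe set and the filters remove other genes only. These alternatives therefore left its signals unchanged and are not separate checks of its difference.

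Nrcam, which has roles at the node of Ranvier and in axon guidance, was at 8.41, 8.39 and 8.28 in GFP+ cells and at 7.72, 8.15 and 7.08 in GFP- cells on the same days. Its GFP+ signals spanned 0.12, the narrowest range of the 10 genes in that fraction, and every GFP+ array lay above every GFP- array. The difference of 0.71 (standard error 0.21, 95% interval 0.19 to 1.23, adjusted p = 0.187) did not pass the test. On day 12 the fractions were 0.24 apart, against 1.21 on day 13.

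Nfasc, neurofascin, which anchors the axon initial segment and the node, had signals of 8.12, 8.81 and 8.19 in GFP+ cells, against 8.44, 8.22 and 6.68 in GFP- cells. The fractions overlapped, since GFP+ cells were lower than GFP- cells on day 11 and higher on the other days. Chl1, the close homologue of L1, showed the same order, with 6.56, 7.47 and 6.96 in GFP+ cells and 6.87, 6.68 and 5.85 in GFP- cells. The mean difference was 0.59 for Nfasc (95% interval -0.24 to 1.43, adjusted p = 0.494) and 0.53 for Chl1 (95% interval -0.17 to 1.23, adjusted p = 0.465). Without day 13 the difference of Nfasc was 0.14 and that of Chl1 was 0.24. Without day 11 the difference was 1.05 for Nfasc (adjusted p = 0.067) and 0.95 for Chl1 (adjusted p = 0.097).

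**Figure D1:**
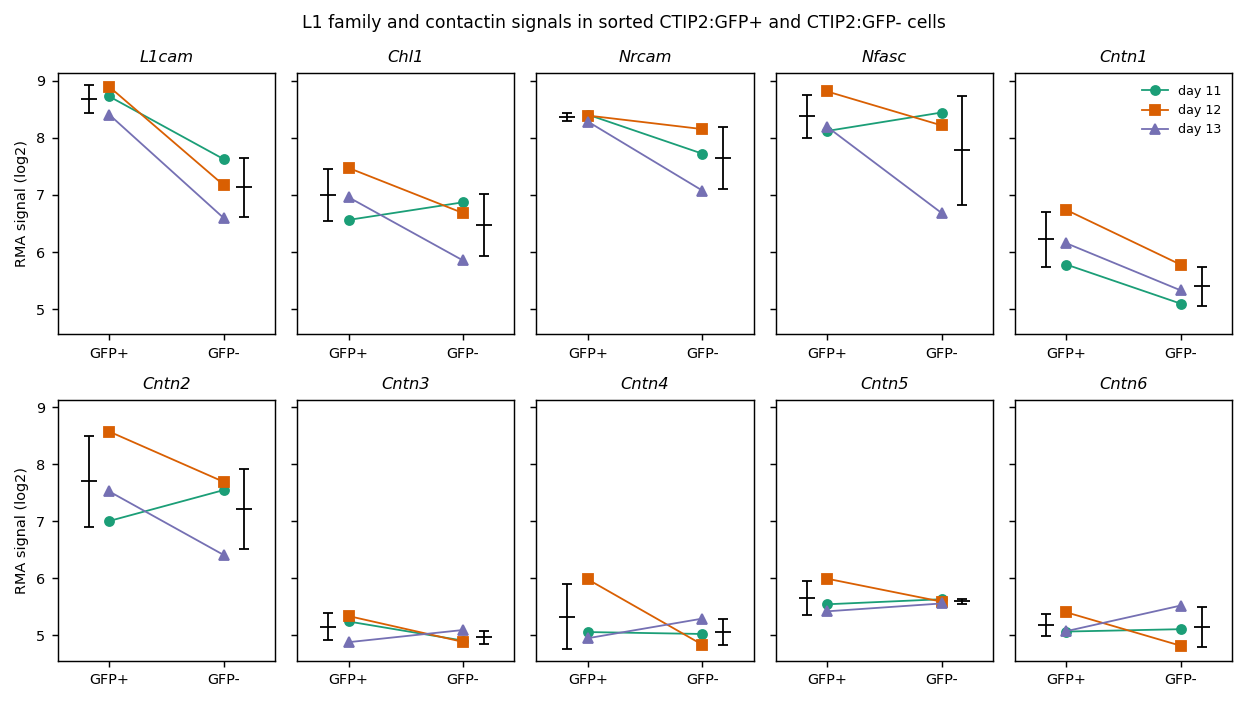
RMA signal (y axis, log2) of the 10 genes in each sorted fraction (x axis). Each coloured point is 1 array, same-day arrays are connected by a line, and means with their SD (n = 3) are drawn in black. For L1cam, Nrcam and Cntn1 every GFP+ point lies above every GFP- point, and the other 7 genes overlap. Signals of different genes come from different probe sets and are not compared.

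Among the contactins, Cntn1, a neuronal ligand and co-receptor, had signals of 5.78, 6.74 and 6.15 in GFP+ cells and of 5.10, 5.78 and 5.33 in GFP- cells. Both fractions were highest on day 12, and the fractions did not overlap, by a margin of less than 0.01 between 5.781 in GFP+ cells of day 11 and 5.777 in GFP- cells of day 12. Within a day the difference was even, at 0.68, 0.96 and 0.83. The mean of 0.82 (1.77-fold, standard error 0.14, 95% interval 0.48 to 1.17, adjusted p = 0.062) stayed just outside the threshold, and it passed with either filter on dim probe sets (adjusted p = 0.045 and 0.033) and with a trended and robust eBayes (adjusted p = 0.005). The filter at the median asks for a signal above 5.41 on at least 3 arrays. Cntn1 met it on all GFP+ arrays, but among GFP- arrays on day 12 only, so that pass is not separate from the rise. The mean difference was almost the same without day 13 (0.82, adjusted p = 0.090).

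Cntn2, also known as TAG-1, a marker of early outgrowing axons, had the widest range of the 10 genes in GFP+ cells, with 7.0, 8.57 and 7.52. Its GFP- signals were 7.55, 7.69 and 6.41. GFP+ cells were 0.54 lower on day 11, and 0.88 and 1.11 higher on day 12 and day 13. The mean difference of 0.48 (95% interval -0.33 to 1.30, adjusted p = 0.568) was 0.17 without day 13 and 1.0 without day 11 (adjusted p = 0.074).

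Cntn3, Cntn4, Cntn5 and Cntn6, contactins with more restricted neuronal expression, had signals between 4.82 and 5.99 on all 6 arrays. The median over all probe sets and arrays was 5.41, and a filter that asked for a signal above it on at least 3 arrays removed Cntn3, Cntn4 and Cntn6. Cntn4 had 5.06, 5.98 and 4.95 in GFP+ cells, against 5.03, 4.84 and 5.30 in GFP- cells. Day 12 alone set its fractions over 2-fold apart (1.14). Cntn6 had 5.07, 5.41 and 5.08 in GFP+ cells, against 5.11, 4.82 and 5.52 in GFP- cells, and on day 13 GFP+ cells were 0.45 lower. The GFP+ signal of Cntn3 was 5.25, 5.34 and 4.88, against 4.91, 4.89 and 5.10 in GFP- cells. For Cntn5 it was 5.55, 5.99 and 5.42, against 5.64, 5.59 and 5.56 in GFP- cells. Mean differences were 0.19 for Cntn3, 0.28 for Cntn4, 0.06 for Cntn5 and 0.03 for Cntn6, with adjusted p between 0.670 and 0.956. The 95% intervals ran from -0.51 at the lowest (Cntn6) to 1.0 at the highest (Cntn4). A 2-fold rise in signal lies outside the interval of Cntn3, Cntn5 and Cntn6 and at the edge of that of Cntn4. With signals this low, on a scale whose lowest value was 4.15, the intervals do not bound a change in RNA. Without day 12 the differences of Cntn4, Cntn5 and Cntn6 were below 0.

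By group, the 4 L1 family genes had a median difference of 0.65, with medians of 0.19, 0.69 and 1.36 on day 11, day 12 and day 13. For the 6 contactins the median was 0.23, with -0.00, 0.73 and -0.18 by day. With day 13 left out the medians were 0.35 for the L1 family and 0.33 for the contactins, against -0.02 for all genes. Every GFP+ array was above every GFP- array for 3 of the 10 genes, L1cam, Nrcam and Cntn1 (9.05% of all genes), and the opposite held for 0 (7.85% of all genes). The same 3 genes were higher in GFP+ cells on each of the 3 days (16.9% of all genes), and 0 were lower on each day (21.4%). The difference changed sign between days for the other 7 (61.6% of all genes).

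**Figure D2:**
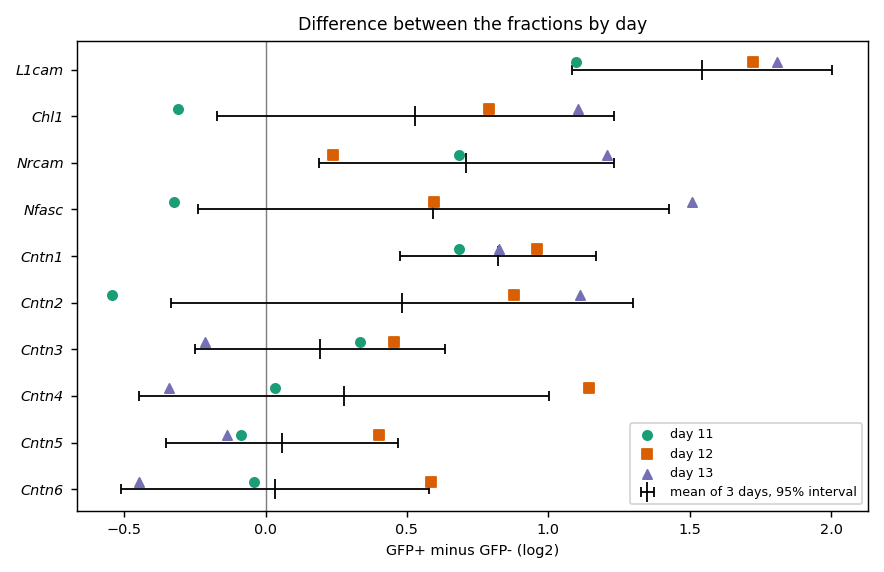
GFP+ minus GFP- difference (x axis, log2) of the 10 genes (y axis). Coloured points are the 3 days, and black bars give the mean of the days with its 95% interval from limma. All 10 genes lie above 0 on day 12, against 5 on day 11 and 6 on day 13. The median of all genes was below 0 on each day.

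The difference was then compared between days. All 10 genes were higher in GFP+ cells on day 12, against 5 on day 11 and 6 on day 13. Genes over 2-fold higher numbered 1 on day 11 (L1cam; 1.85% of all genes), 2 on day 12 (L1cam and Cntn4; 1.48%) and 5 on day 13 (L1cam, Chl1, Nrcam, Nfasc and Cntn2; 9.18%). Over 2-fold lower were 0 of them on day 11 (1.3% of all genes), day 12 (2.43%) and day 13 (2.29%). In a fit with a slope of the difference over days, 0 of the 10 genes passed the test, against 7 of all genes (0.0351%). The slope was 0.92 per day for Nfasc (standard error 0.27, adjusted p = 0.305 from limma), 0.83 for Cntn2 (adjusted p = 0.448) and 0.71 for Chl1 (adjusted p = 0.680), and these 3 genes were the ones at an unadjusted p under 0.05 (5.11% of all genes). That fit leaves 1 residual degree of freedom per gene, and its standard error is the spread pooled over all genes.

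Within the GFP+ fraction, day 12 gave the highest signal for 9 of the 10 genes, with Nrcam as the exception, and for 31.3% of all genes. The step between day 11 and day 12 in GFP+ cells was 1.57 for Cntn2, 0.96 for Cntn1, 0.92 for Cntn4 and 0.91 for Chl1, and 0.17 for L1cam. All 9 were lower again on day 13, by 0.33 for Cntn6 to 1.05 for Cntn2. Mean signals of the marker lists moved on the same arrays. The 11 cortical and telencephalic markers averaged 5.96, 6.64 and 6.40 in GFP+ cells on the 3 days. The 10 ventral forebrain and interneuron markers averaged 8.95, 7.60 and 8.68, and the 14 neuronal markers 9.22, 9.51 and 9.12. Against the mean of the cortical list, its members Bcl11b (8.76, 7.91 and 8.54) and Emx1 (6.23, 6.0 and 6.25) were lowest on day 12 in GFP+ cells. The part of these markers in the day 12 values was not tested. Within the GFP- fraction, day 13 gave the lowest signal for L1cam, Chl1, Nrcam, Nfasc, Cntn2 and Cntn5 (37.7% of all genes), and Nfasc was 1.53 lower there than on day 12. On that array the neuronal markers averaged 7.55, against 8.55 on the GFP- array of day 11 and 8.63 on that of day 12, while the pluripotent markers averaged 5.50 there, against 4.94 on day 11 and 4.71 on day 12, the mesenchymal markers 5.94, against 5.36 and 5.33, and the oligodendrocyte and Schwann cell markers 6.28, against 5.73 and 5.95. The same array had the smallest standard deviation over probe sets (1.11) and the highest median (5.52) of all arrays. Its GFP- values were low for the L1 family and highest of the 3 days for Cntn3, Cntn4 and Cntn6. The part of these markers and of the narrower spread in those values was not tested, and they cannot be told apart here. A common slope over days, fitted to both fractions, passed for 0 of the 10 genes and for 0 genes in all (limma), with 1 of the 10, L1cam (-0.34 per day), and 0.873% of all genes at an unadjusted p under 0.05.

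**Figure D3:**
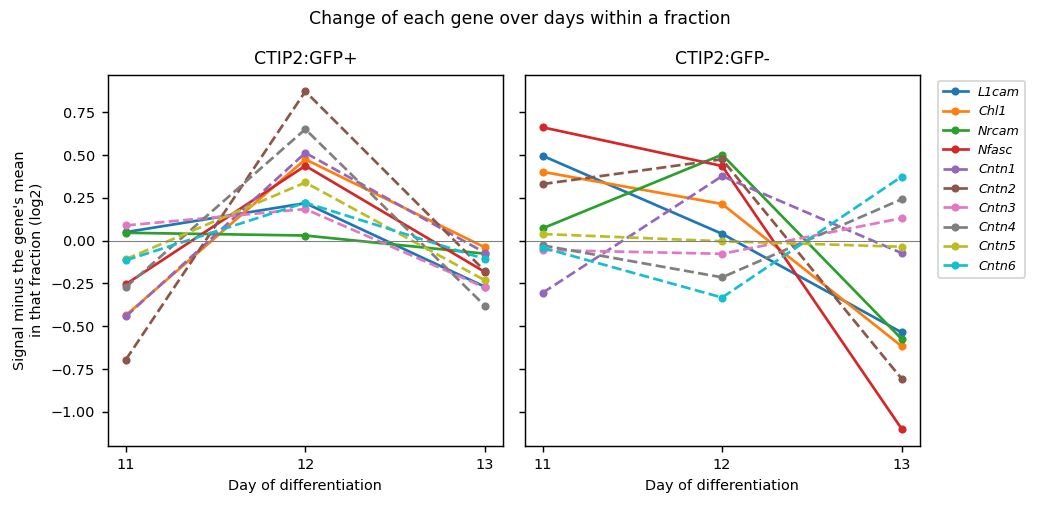
Signal of each gene minus its own mean over the 3 days (y axis, log2) by day of differentiation (x axis), for CTIP2:GFP+ cells on the left and CTIP2:GFP- cells on the right. Solid lines are the L1 family and dashed lines the contactins, with 1 array per point. Day 12 is the highest GFP+ point of every gene except Nrcam, and in GFP- cells Cntn3, Cntn4 and Cntn6 were highest on day 13, where the 4 L1 family genes were lowest.

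Upstream sequences are shown for the 3 genes whose fractions did not overlap and for Cntn6, the gene with the smallest difference. They are the 250 bases before the outermost annotated start, from RefSeq on GRCm38.p6, in which all 10 genes were found. L1cam lies on the minus strand at chrX:73880835-73881084, Nrcam on the plus strand at chr12:44328635-44328884, Cntn1 on the plus strand at chr15:92050915-92051164 and Cntn6 on the plus strand at chr6:104492794-104493043. Capitals mark a GC box (GGGCGG) or an E-box (CAGCTG, a core bound by bHLH factors), searched on both strands.
L1cam: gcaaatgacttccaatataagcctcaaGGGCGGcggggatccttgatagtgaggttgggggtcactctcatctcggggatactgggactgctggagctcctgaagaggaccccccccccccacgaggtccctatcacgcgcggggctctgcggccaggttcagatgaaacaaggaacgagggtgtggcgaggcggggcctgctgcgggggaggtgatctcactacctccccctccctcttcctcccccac
Nrcam: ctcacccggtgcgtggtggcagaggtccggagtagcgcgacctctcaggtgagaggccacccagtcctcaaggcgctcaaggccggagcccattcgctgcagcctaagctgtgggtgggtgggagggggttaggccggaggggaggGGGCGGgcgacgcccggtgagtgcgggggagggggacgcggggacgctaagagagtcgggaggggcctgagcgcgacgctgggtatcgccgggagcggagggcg
Cntn1: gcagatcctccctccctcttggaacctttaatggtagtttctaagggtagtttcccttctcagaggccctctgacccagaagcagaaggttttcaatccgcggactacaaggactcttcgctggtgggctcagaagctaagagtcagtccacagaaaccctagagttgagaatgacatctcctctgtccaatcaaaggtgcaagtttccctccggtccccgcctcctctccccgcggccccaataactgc
Cntn6: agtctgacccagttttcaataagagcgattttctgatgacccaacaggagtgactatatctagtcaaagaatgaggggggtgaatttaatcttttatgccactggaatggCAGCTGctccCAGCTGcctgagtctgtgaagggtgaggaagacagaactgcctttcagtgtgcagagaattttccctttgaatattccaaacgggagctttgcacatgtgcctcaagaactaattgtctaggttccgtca
The GC share of these windows was 63.2% for L1cam, 72.4% for Nrcam, 53.6% for Cntn1 and 45.2% for Cntn6, against a median of 52.4% over all 32851 windows of the same length. A GC box was found in the windows of L1cam, Nrcam and Nfasc (32.7% of all windows), and the E-box was in those of Cntn4 (1 match) and Cntn6 (2 matches), as in 4271 of all windows. The homeodomain core TAATTA was in 0 of the 10 windows (4.84% of all windows). A match describes the letters only.

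Genes whose profile over the 6 arrays was most like that of L1cam were found by the Euclidean distance between log2 profiles, each centred on its own mean. The nearest were Mast1, a microtubule-associated kinase of neurons (distance 0.38), Ctnna2, the neuronal alpha-catenin (0.41), Ppfia2, liprin-alpha of the presynaptic active zone (0.42), Actl6b, the subunit of the neuronal BAF chromatin remodeller (0.42), and Fnbp1l, a membrane-curving regulator of actin (0.44). Their differences were 1.64, 1.47, 1.60, 1.58 and 1.46, which the choice by likeness to L1cam on the same arrays fixes. The nearest of the other 9 members to L1cam was Nrcam, at 1.23. For Cntn1 the nearest genes were Zdbf2 (0.36), Tshz2 (0.37) and Syt4, a synaptotagmin (0.37). For Cntn6 they were Slc35f4 (0.10), Cntnap5b, a member of the contactin-associated family (0.17), and Crhr1, a receptor for corticotropin-releasing hormone (0.20). Within the set, the closest pairs were Cntn3 with Cntn5 (0.36), Cntn3 with Cntn6 (0.48) and Cntn5 with Cntn6 (0.56), and Chl1 lay nearest to Cntn2 (0.60). Profiles were centred but not scaled, so genes that change little lie close together whatever the order of their arrays. Cntnap5b was at 4.44 to 4.97 and Cntn6 at 4.82 to 5.52, on a scale whose lowest value was 4.15. A small distance between such low signals need not mean a shared pattern.

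Genes that act with these adhesion molecules were listed in 4 groups, of which 69 of 77 genes were measured. Of these, 4 were higher in GFP+ cells (0.797% of all genes), 3 were lower (0.567%) and 62 did not pass. Their median difference was 0.34, against -0.05 for all genes. Without day 13, 0 of all genes were called in either direction, so none of the 7 calls could hold (adjusted p of 0.0525 to 0.075). The calls of Shtn1, Msn, Ncam1, Tnc and Fgfr1 were lost with no replicate block (0.0901 to 0.244). Among 19 ankyrin, spectrin and other cytoplasmic partners of the L1 family, 2 were higher, 1 was lower and 16 did not pass (median 0.53). Kif5a, a kinesin heavy chain of axonal transport, was at 8.76, 8.75 and 8.74 in GFP+ cells, against 7.10, 7.35 and 7.04 in GFP- cells (difference 1.58, standard error 0.14, adjusted p = 0.024 from limma). Shtn1, shootin, which couples L1cam to the actin flow of the growth cone, was higher by 1.09 (adjusted p = 0.035). Msn, moesin, a linker of membrane proteins to actin, was lower, with 6.60, 7.45 and 7.07 in GFP+ cells, against 8.28, 9.14 and 8.37 in GFP- cells (-1.56, adjusted p = 0.025), and Ezr, the related ezrin, which was named after its values were seen, had a difference of -1.14 (adjusted p = 0.126). Dcx, doublecortin, a microtubule protein of migrating neurons that binds neurofascin, had the largest difference of the group, 1.70, without passing the test (adjusted p = 0.064). Kif5c, another kinesin heavy chain, was at 8.92, 9.0 and 9.15 in GFP+ cells, against 8.25, 8.11 and 7.01 in GFP- cells, with a difference of 1.23 that did not pass either (adjusted p = 0.124). The ankyrins Ank1, Ank2 and Ank3, named here for their role after their values were seen, had differences of 0.53, 0.50 and 0.94 and did not pass (adjusted p between 0.267 and 0.467). On day 11, day 12 and day 13 the difference of Ank3, the ankyrin of the axon initial segment, was -0.12, 1.20 and 1.74, beside -0.32, 0.59 and 1.51 for Nfasc, which binds it. This order was not particular to the pair. Ank2 had -0.29, 0.77 and 1.02 and the neuronal marker Elavl4 had -0.13, 0.57 and 1.26. Ank1 had 0.31, 1.0 and 0.28, and 11 of the 14 neuronal markers were higher on each day. The likeness of Ank3 and Nfasc was not tested.

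Among 20 contactin partners and matrix ligands, 1 was higher (0.797% of all genes), 1 was lower (0.567%) and 18 did not pass (median 0.26). Ncam1, the neural cell adhesion molecule, was higher by 1.01 (adjusted p = 0.045) and Tnc, tenascin-C, a matrix ligand of contactins made by radial glia, was lower by 1.51 on the log2 scale (adjusted p = 0.043). Tnc was at 5.38, 6.41 and 5.98 in GFP+ cells, against 6.39, 7.99 and 7.93 in GFP- cells, so that the fractions overlapped although GFP+ cells were lower on each day. Aplp1, an amyloid precursor-like protein, and Cntnap4, of the contactin-associated family, had differences of 1.26 and 1.13 and did not pass (adjusted p = 0.075 and 0.099). Cntnap2 and Ptprz1, a receptor phosphatase of radial glia that binds Cntn1, were named after their values were seen and did not pass either, with differences of 0.83 (adjusted p = 0.088) and -1.04 (adjusted p = 0.062). Every GFP+ array lay below every GFP- array for Ptprz1, with 7.78, 8.87 and 8.84 in GFP+ cells and 9.07, 9.5 and 10.03 in GFP- cells.

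Of 18 guidance and growth factor co-receptors, 1 was higher (0.797% of all genes), 1 was lower (0.567%) and 16 did not pass (median 0.17). Nrp2, a semaphorin receptor, was higher by 1.51 (adjusted p = 0.043) and Fgfr1, a fibroblast growth factor receptor that L1 family proteins can engage, was lower, at -1.11 (adjusted p = 0.045). Nrp1, the partner of L1cam in the receptor for semaphorin 3A and named here for that role, had 6.40, 7.47 and 6.48 in GFP+ cells, against 5.55, 5.78 and 5.54 in GFP- cells, with no overlap and a difference of 1.15 that did not pass (adjusted p = 0.066). Plxna4 and Plxna2, plexins that transduce semaphorin signals, had differences of 1.46 (adjusted p = 0.055) and 1.22 (adjusted p = 0.192). None of 12 signalling kinases and proteases of L1 passed (limma), with a median of 0.29 and the largest differences at Csnk2a1, a casein kinase subunit (0.70), and Fyn, a Src family kinase (0.68).

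**Figure D4:**
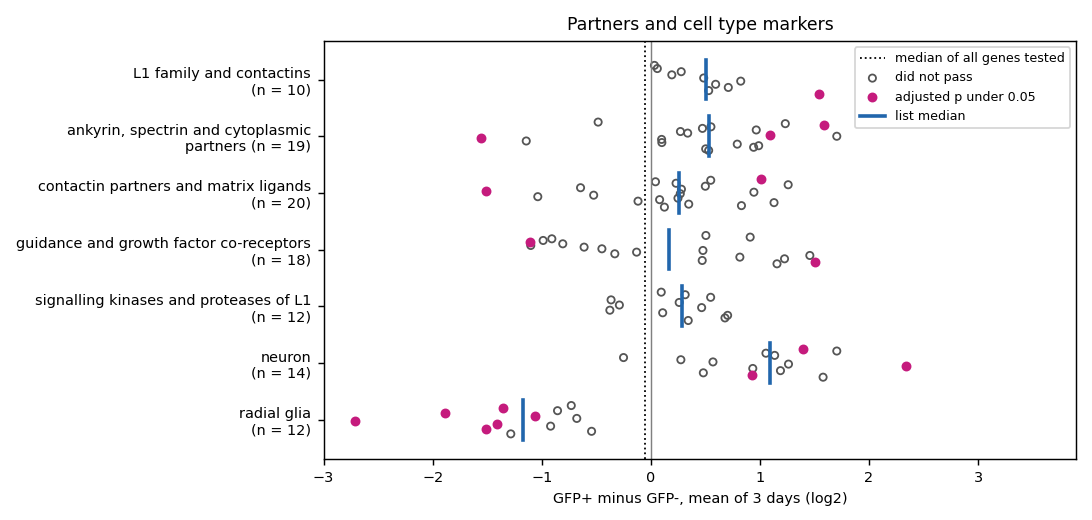
GFP+ minus GFP- difference averaged over the 3 days (x axis, log2) for the L1 family and contactins, 4 groups of partner genes and 2 groups of cell type markers (y axis, with the number measured). Points are genes, filled where the adjusted p from limma was under 0.05, blue bars are list medians and the dotted line is the median of all genes (-0.05). The neuronal list lies at a median of 1.09 and the radial glial list at -1.17.

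Markers of other cell types moved with the fractions as well. Of 14 neuronal markers, 3 were higher and 0 lower (median 1.09), and of 12 radial glial markers, 6 were lower and 0 higher (median -1.17). Over all genes 0.797% were called higher and 0.567% lower. Per array the neuronal markers averaged 9.12 to 9.51 in GFP+ cells and 7.55 to 8.63 in GFP- cells, and the radial glial markers 7.22 to 7.68 in GFP+ cells and 8.49 to 8.95 in GFP- cells. Of 10 ventral forebrain and interneuron markers, 6 were higher (median 2.38). Of 11 cortical and telencephalic markers 1 was higher, Bcl11b itself, which carries the GFP used for sorting, and the fractions overlapped for the other 10. The differences of this list were above 0 for 4 genes and below 0 for 7, with a median of -0.23. The lists for oligodendrocytes and Schwann cells, mesenchyme and pluripotent cells had 0 genes called among 8, 9 and 7 measured (limma), with medians of -0.27, -0.15 and -0.25. The part of cell composition in the differences of L1cam and the other members was not tested.

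**Figure D5:**
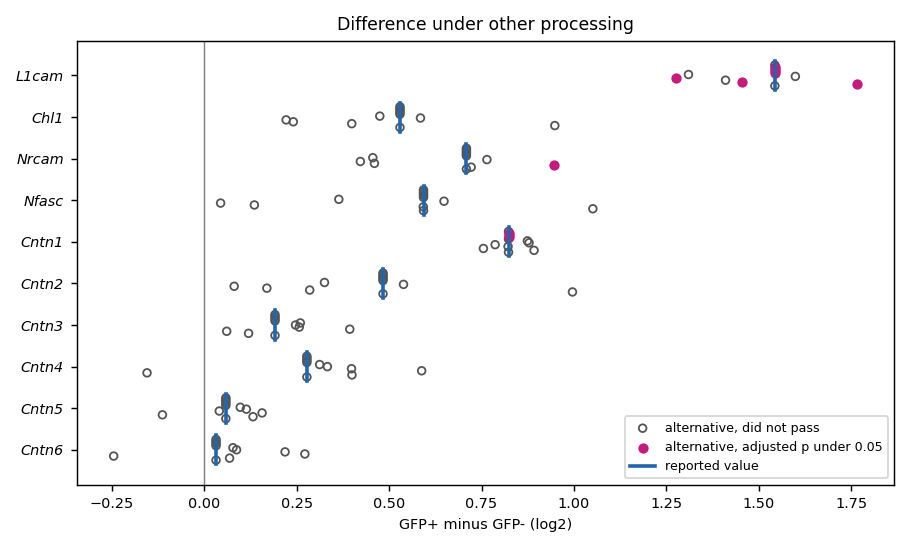
GFP+ minus GFP- difference (x axis, log2) of the 10 genes (y axis) under 11 or 12 other ways of processing the arrays. Blue bars are the reported values, and filled points are alternatives with an adjusted p under 0.05. L1cam stays between 1.28 and 1.77 and Cntn1 between 0.76 and 0.89, and Cntn4, Cntn5 and Cntn6 each cross 0 under 1 alternative.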

How the data were processed

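The data are 6 single-colour arrays of CTIP2:GFP+ and CTIP2:GFP- sorted cells. The authors used the RMA16 method of GeneSpring for probe set signals, and the deposited values are log2 signals from 4.15 to 13.1. It is not stated in the sources used here if RMA was run on all arrays at once or if probe sets were filtered. Of 28853 probe sets, 21789 had 1 gene symbol, 1621 several and 5443 none. Each of 19938 genes was represented by its probe set with the highest mean.

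Fractions were compared with limma 3.58.1 in R 4.3.3, with day as a factor and 2 residual degrees of freedom per gene before eBayes, and Benjamini-Hochberg adjustment over all genes. The pairing comes from the day in the labels: after subtracting each fraction's mean, both arrays of a day correlated over genes at 0.112, 0.558 and 0.368, and arrays of different days at -0.493 to 0.297, the highest being GFP+ of day 11 with GFP- of day 13. Slopes over days were fitted likewise. The script was tested on simulated data. The genes and lists were chosen with earlier results of these data known. Named were the 10 members, from each partner list the genes past the test and the 2 others with the largest absolute difference, and the nearest profiles. Alternatives were the fit without the block, other scalings, filters and probe set choices, another eBayes, a t-test and each day left out. The study names a t-test for other experiments and no test for the arrays. The number of arrays limits the precision.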

Additional observations from a re-analysis of the deposited data

Results flagged for a closer look

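The difference between GFP+ and GFP- cells changed sign between days for 7 of the 10 genes, and for 61.6% of all genes. With 1 array per fraction and day these single differences were not tested, and the slope of the difference over days passed for none of the 10 genes (limma, adjusted p of at least 0.305, with 3 genes at an unadjusted p under 0.05).
For Chl1 it was -0.31, 0.79 and 1.11 on day 11, day 12 and day 13. Nfasc had -0.32, 0.59 and 1.51 on these days, and Cntn2 had -0.54, 0.88 and 1.11, so that GFP+ cells were lower only on day 11. In the other 4 genes GFP+ cells were lower on day 13. Cntn3 had 0.33, 0.45 and -0.21, Cntn4 had 0.034, 1.14 and -0.34, Cntn5 had -0.089, 0.40 and -0.14, and Cntn6 had -0.041, 0.59 and -0.45.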

How the results depend on the processing

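Across the alternatives 0 of the 10 genes were called lower. When the day was ignored (no replicate block), 0 of the 10 were called higher, with 84 genes in all higher and 41 lower. After median centring 0 of the 10, 0 higher and 0 lower were called, and after a further quantile normalization 0 of the 10, 52 higher and 99 lower, against 159 higher and 113 lower as reported. A t-test, which the study names for other experiments and not for the arrays, gave 0 of the 10 and 0 in either direction after Benjamini-Hochberg, with 1 of the 10, 966 higher and 790 lower at an unadjusted p under 0.05. A trended and robust eBayes called 2 of the 10 (549 higher, 510 lower), a filter at the 20th percentile 2 (375 and 221), and a filter at the median on 3 arrays 2 of the 7 left (653 and 319). The second gene was Cntn1 in each, and it met the filter at the median on all GFP+ arrays but on few GFP- arrays. Leaving out each day in turn gave 0 to 2 of the 10, 0 to 930 genes higher and 0 to 229 lower. Without day 13 none of the 10 was called, without day 11 L1cam alone, and without day 12 L1cam and Nrcam (0.95, adjusted p = 0.038). Over the days left out the difference ran from -0.15 to 0.59 for Cntn4, -0.11 to 0.16 for Cntn5, -0.24 to 0.27 for Cntn6 and -0.022 to 0.24 for Cntnap1. Without day 13, after median centring and by the t-test, 0 of all genes were called in either direction. The partner genes called thus lost their calls there too, with adjusted p of 0.0525 to 0.075, 0.0981 to 0.157 and 0.124 to 0.61. Those of Ncam1 and Fgfr1 were lost without day 11, and those of Shtn1, Ncam1 and Tnc after quantile normalization. With no block the calls of Shtn1, Msn, Ncam1, Tnc and Fgfr1 were lost and those of Kif5a and Nrp2 were kept. Genes over 2-fold higher and lower numbered 392 and 204 as reported, 243 and 290 without day 13, 474 and 173 after median centring and 288 and 254 after quantile normalization. The cause was not tested.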
